A study of Mus musculus with 13 samples.

Results

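Homologous recombination and Fanconi genes were examined as a set of 9 genes, Brca1, Brca2, Palb2, Blm, Fancd2, Fanci, Exo1, Chek1 and Atm, chosen by their symbols from a count table of 24421 genes. All 9 were present in the table, had counts in each library and passed the filter on low counts. The samples came from female MMTV-HER2/Neu mice, in which a rat HER2/Neu transgene driven by a mammary tumor virus promoter gives spontaneous mammary tumors; all groups carried this transgene. There were 2 cancer-free mammary glands from untreated mice and 11 individual tumors. The primary untreated tumors (n = 3) arose in mice on plain water. Stavudine, which blocks reverse transcriptase as a nucleoside analog, was in the drinking water at 1 mg/mL for the primary stavudine tumors (n = 3). Mice of the recurrent 17-DMAG group (n = 3) were injected into the peritoneum with 17-DMAG, a drug against the chaperone HSP90, at 20 mg/kg and 3 times a week; their tumors had vanished and then come back while injections went on. In the recurrent 17-DMAG plus stavudine group (n = 2) the tumors came back under both agents. Stavudine was begun at 2 months of age or once primary tumors had appeared, and the labels do not say which applied to a given mouse. Ages at collection are not stated in the labels.

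Homologous recombination repairs a broken chromosome by copying the intact sister, which is at hand only after replication. The break ends are cut back by nucleases such as EXO1. BRCA1, joined by PALB2 to BRCA2, then helps the cut ends pair with the sister, and the BLM helicase takes the joint molecules apart. In the Fanconi pathway, a core complex ubiquitinates the FANCD2 and FANCI pair at crosslinked DNA. ATM signals breaks, and CHEK1, which acts below ATR, halts the cell cycle when forks stall. Many of these genes are transcribed around S phase under E2F factors, so tissues with more dividing cells tend to hold more of their RNA. In breast tissue, inherited damage to BRCA1, BRCA2, PALB2 or ATM raises the risk of cancer.

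The genes lie on 6 chromosomes of the mouse build GRCm38. Brca1 was at chr11:101488764-101551955 and Brca2 at chr5:150522630-150570329. Chromosome 7 held 3 of them, Fanci at chr7:79391929-79450264, Blm at chr7:80454733-80535119 and Palb2 at chr7:122107262-122132985. Chek1, at chr9:36708482-36727065, and Atm, at chr9:53439149-53536740, shared chromosome 9. Fancd2 was at chr6:113531682-113597017 and Exo1 at chr1:175880581-175913489. Promoters of 300 bases (250 before to 50 after the start) from RefSeq on GRCm38.p6 matched 7 of the 9 symbols, all but Fancd2 and Exo1. The RefSeq start can differ from the outer end of the gene given above, which is from GENCODE: the windows of Fanci and Chek1 lie inside those bounds. They were searched on both strands for 2 short forms of the E2F motif, TTCCCGC and TTGGCGC, and for the CHR element TTTGAA found in many genes of mitosis. These letters were chosen after the sequences had been seen. The form TTCCCGC stood in 4 of the 7 promoters (Brca2, Fanci, Chek1 and Atm) and in 4.6% of 32851 mouse promoters of this length. TTGGCGC stood in the Brca1 promoter and in 2.45% of all promoters, and either form was present in 6.81% of all. TTTGAA was in 0 of the 7 and in 17.9% of all promoters, and neither E2F form was in the windows of Palb2 and Blm. A match is only a run of letters. The 30 bases around each match are shown on the strand of the gene because the results below turn on how far these genes follow cell division; capitals mark the motif, here read from the opposite strand.
Brca1 (chr11:101551916-101551945, minus strand): gctagcgctagGCGCCAAgcggccggtttc
Brca2 (chr5:150522442-150522471, plus strand): tttaggccacaGCGGGAAacagacacacac
Fanci (chr7:79392345-79392374, plus strand): cgtggagtagaGCGGGAAttttggaaggat
Chek1 (chr9:36726609-36726638, minus strand): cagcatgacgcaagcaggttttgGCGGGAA
Atm (chr9:53536638-53536667, minus strand): tagagccggaaGCGGGAAggcgtgcgtaca

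Library totals ran from 39921388 to 56887708 counts, and levels are given as CPM, the count scaled to the library total times its TMM factor. A floor of 3 counts corresponded to 0.0587 to 0.106 CPM, far below each of the 9 genes. The tissue was a mixture. Luminal epithelium markers summed to 2420 to 3160 CPM in 10 tumors and to 1580 CPM in recurrent 17-DMAG plus stavudine tumor 2, where skeletal muscle markers reached 1430 CPM. Fibroblast markers summed to 5640 CPM in recurrent 17-DMAG tumor 1 and to at most 1820 CPM in the other tumors. Milk protein genes summed to 28000 CPM in gland 1 and 757000 CPM in gland 2, and B cell markers to 202 and 3.32 CPM. The part of these mixtures in the results was not tested. In tissue samples, fewer cells of a type and less RNA per cell cannot be told apart.

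Atm was by far the most abundant of the 9 per length. Divided by the length of the longest coding transcript, its level in tumors was 12.6 ± 1.61 CPM per kb (SD, n = 11), and it stood above Brca1, the next, in 11 of 11 tumors. Brca1 (3.57 ± 0.832 CPM per kb), Brca2 (3.49 ± 0.69), Blm (3.42 ± 1.06) and Chek1 (3.33 ± 0.669) followed, and the neighbours in this order differed by less than 0.1 CPM per kb, well within their spread. Fanci (2.48 ± 0.527), Palb2 (2.01 ± 0.492), Fancd2 (1.69 ± 0.43) and Exo1 (1.32 ± 0.399) were lower. Fanci was below Chek1 in 11 of 11 tumors, and the last 3 were each below their upper neighbour in 9 or 10 of 11 tumors, by means that differed by less than 1 SD. Over the tumors, the highest value of a gene was 1.45 times the lowest for Atm and 1.83 times for Brca2, and between 2.11 times (Chek1) and 2.98 times (Fancd2) for the other 7.

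Among tumors, Brca1, Brca2 and Palb2, whose proteins act as 1 complex, had their highest values in the primary stavudine or the recurrent 17-DMAG group. Brca1 measured 16.9 and 21.5 CPM in the glands, 23.4, 17.0 and 21.0 in primary untreated tumors, 21.8, 33.0 and 26 in primary stavudine tumors, 28.0, 26.5 and 26.1 in recurrent 17-DMAG tumors, and 22.3 and 12.8 in recurrent 17-DMAG plus stavudine tumors. Each recurrent 17-DMAG tumor thus lay above each primary untreated one and above both tumors that had regrown under stavudine. The first held for 7.51% and the second for 10.5% of all genes. Brca2 measured 30.8 and 19.7 CPM in the glands, 35.6, 32.5 and 37.2 in primary untreated, 36.0, 44.7 and 47.0 in primary stavudine, 26, 42.4 and 46.3 in recurrent 17-DMAG, and 38.2 and 25.7 in recurrent 17-DMAG plus stavudine tumors. The recurrent groups overlapped both primary groups, and the low value of 26 belonged to the tumor rich in fibroblast RNA. Palb2, the bridge between the other two, measured 6.59 and 17.1 CPM in the glands, 7.72, 5.95 and 6.58 in primary untreated, 6.69, 8.23 and 8.67 in primary stavudine, 11.6, 7.83 and 7.70 in recurrent 17-DMAG, and 7.81 and 4.16 in recurrent 17-DMAG plus stavudine tumors. Gland 2 was the highest of all 13 libraries for Palb2.

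The nuclease and the helicase had their top values in recurrent 17-DMAG tumor 1. Exo1 measured 6.90 and 9.71 CPM in the glands, 9.87, 5.87 and 5.56 in primary untreated, 10.8, 11.5 and 12.5 in primary stavudine, 16.1, 10.9 and 12.5 in recurrent 17-DMAG, and 10.6 and 7.33 in recurrent 17-DMAG plus stavudine tumors. Its primary untreated tumors were below all primary stavudine and all recurrent 17-DMAG tumors. All primary stavudine tumors lay above all primary untreated ones in 2 members, Exo1 and Chek1, and in 5.27% of all genes. All recurrent 17-DMAG tumors lay above all primary untreated ones in 7.51% of all genes. Blm measured 15 and 14.6 CPM in the glands, 15.8, 12.0 and 14.1 in primary untreated, 15.1, 15.2 and 16.8 in primary stavudine, 30, 16.4 and 18.9 in recurrent 17-DMAG, and 15.1 and 10.4 in recurrent 17-DMAG plus stavudine tumors. Without the tumor at 30 CPM, the values of Blm lay between 10.4 and 18.9 CPM.

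The Fanconi pair moved together, with r = 0.89 between Fancd2 and Fanci over the tumors. Fancd2 had the same r with Brca1 and with Palb2. Fancd2 measured 7.54 and 4.73 CPM in the glands, 7.68, 8.06 and 8.93 in primary untreated, 8.05, 10.6 and 11.3 in primary stavudine, 12.5, 11.3 and 11.3 in recurrent 17-DMAG, and 8.75 and 4.21 in recurrent 17-DMAG plus stavudine tumors. Fanci measured 10.7 and 6.96 CPM in the glands, 11, 10.5 and 13.2 in primary untreated, 9.71, 13.7 and 11.2 in primary stavudine, 13.8, 12.3 and 15.2 in recurrent 17-DMAG, and 9.59 and 6.53 in recurrent 17-DMAG plus stavudine tumors. Both genes were lowest among the tumors in recurrent 17-DMAG plus stavudine tumor 2.

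The kinases differed from each other. Chek1 measured 9.01 and 18.2 CPM in the glands, 12.2, 9.42 and 11.3 in primary untreated, 14.2, 16.7 and 12.8 in primary stavudine, 13.5, 12.7 and 15.9 in recurrent 17-DMAG, and 12.5 and 7.92 in recurrent 17-DMAG plus stavudine tumors. Atm measured 124 and 132 CPM in the glands, 130, 120 and 140 in primary untreated, 142, 141 and 130 in primary stavudine, 97.4, 118 and 132 in recurrent 17-DMAG, and 114 and 97.9 in recurrent 17-DMAG plus stavudine tumors. Atm was the one gene of the 9 with a recurrent 17-DMAG mean below the primary untreated mean.

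**Figure D1:**
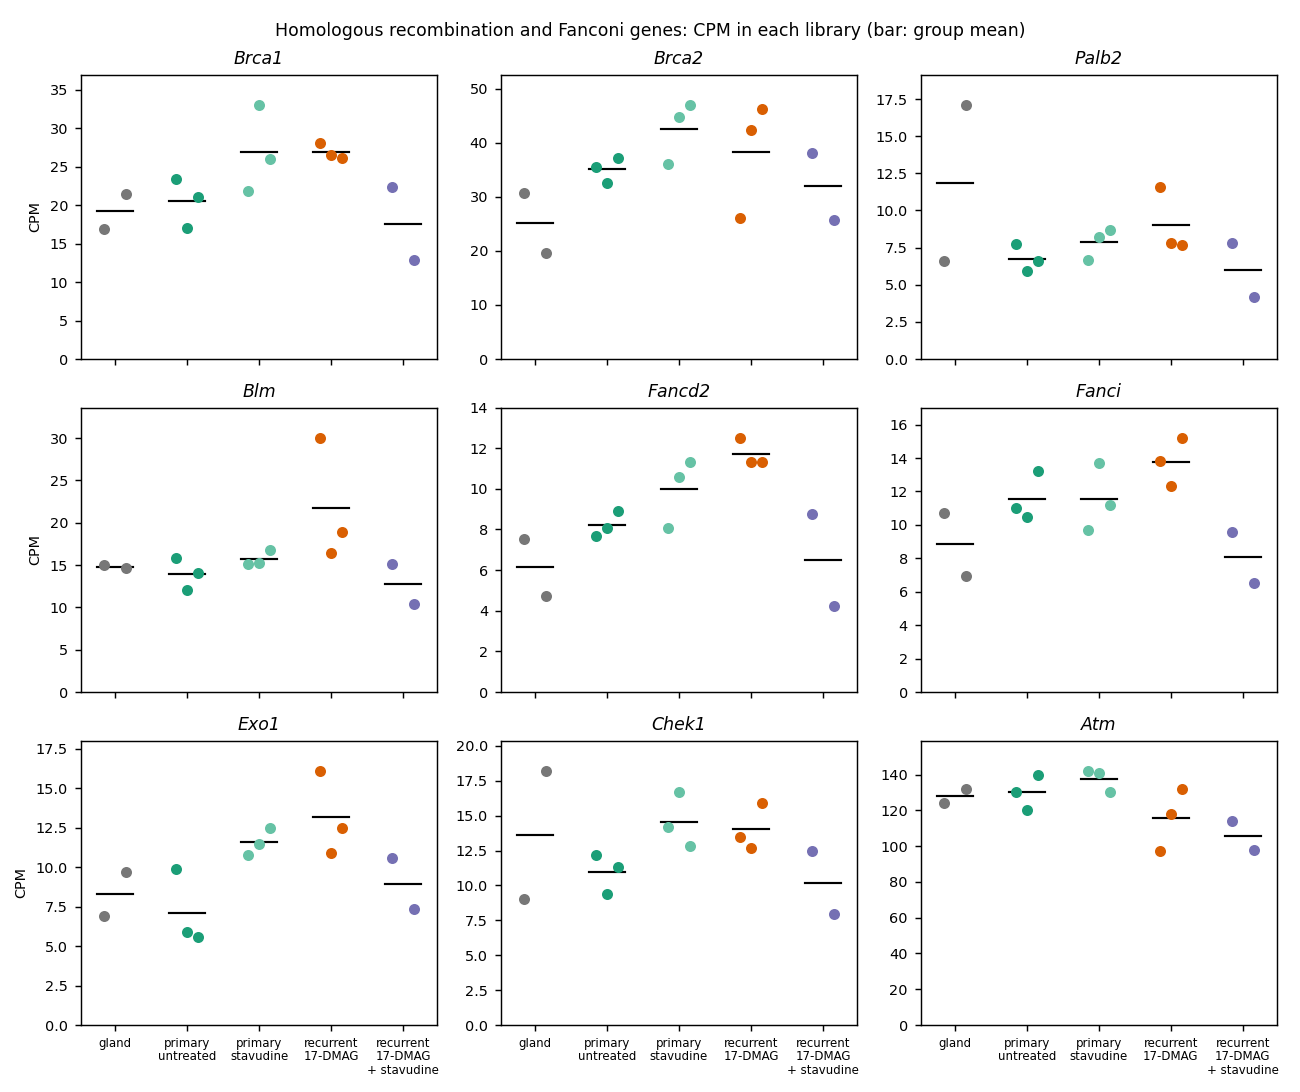
CPM of each of the 9 genes (vertical axes, from 0) in the 2 glands and in the tumors of the 4 groups; points are libraries and bars are group means. Recurrent 17-DMAG plus stavudine tumor 2 is the lowest tumor for 7 genes, all but Exo1 and Atm, and Atm spans the narrowest range.

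Tumors were compared with glands to ask whether these repair genes are raised in cancer. No member passed the test: edgeR's quasi-likelihood test with Benjamini-Hochberg adjustment over 17188 genes called 0 of 9 at an adjusted p under 0.05, against 10.5% of all genes. None of the 9 had an unadjusted p under 0.05, a mark that 29.7% of all genes reached. DESeq2 and limma voom also called 0 members, against 3258 and 1568 of the 17188 genes. An unadjusted p under 0.05 was reached by 2 members and 5579 genes in DESeq2, and by 0 members and 4641 genes in limma voom. Changes (mean of the 4 tumor groups minus glands) ran from -0.70 on the log2 scale for Palb2 (95% interval -1.42 to 0.01, adjusted p = 0.175) to 0.53 for Brca2 (-0.01 to 1.08, adjusted p = 0.175), with a median of 0.23 beside -0.02 over all genes. The 2 glands differed 2.6-fold in Palb2 and 2.02-fold in Chek1, both higher in gland 2. Without gland 1 the change of Palb2 was -1.20, and without gland 2 it was 0.23. With 1 gland left, the spread comes from the tumors alone and the lone gland is assumed to vary like them. No test is therefore given for these fits. Chek1 likewise went from -0.54 without gland 1 to 0.53 without gland 2. Mki67, the proliferation antigen, measured 304 and 249 CPM in the glands, within the range of the tumors, 83.9 to 523 CPM.

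How far division alone goes with these genes was measured with a division score, the mean log2 CPM of 30 genes of mitosis such as Mki67 and Top2a, none of them a member. The score was 4.96, 4.48 and 4.82 in primary untreated, 4.54, 5.13 and 4.96 in primary stavudine, 5.33, 5.24 and 5.25 in recurrent 17-DMAG, and 4.12 and 2.95 in recurrent 17-DMAG plus stavudine tumors, and 4.40 and 3.42 in the glands. Both tumors that had regrown under stavudine were thus below all other tumors. Mki67 itself was at 199 and 83.9 CPM in these 2 tumors and at 309 CPM or more in the others.

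Brca1, Fancd2 and Fanci rose with the division score over the 11 tumors. Per unit of the score, Fancd2 rose by 0.57 on the log2 scale (95% interval 0.35 to 0.80, adjusted p = 0.0175), Brca1 by 0.47 (0.27 to 0.66, adjusted p = 0.0255) and Fanci by 0.45 (0.27 to 0.63, adjusted p = 0.0181). These 3 of 9 members called by edgeR compare with 1.57% of 16870 genes, of which positive slopes made up 1.07%. The members were chosen with earlier results of these data known, so these shares describe the set and do not test it. The other 6 slopes were also positive but did not pass: Palb2 0.44 (adjusted p = 0.122), Blm 0.42 (adjusted p = 0.189), Chek1 0.34 (adjusted p = 0.174), Exo1 0.34 (adjusted p = 0.484), Brca2 0.24 (adjusted p = 0.447) and Atm 0.12 (adjusted p = 0.644). The median slope was 0.42 for the members and 0 for all genes. Upper limits of the 9 intervals reached at most 0.80, below the slope of 1 that a gene moving in step with the division score would have. The 30 genes of the score had slopes from 0.76 to 1.44, but they make up the score, so slopes near 1 are built in. A list of 30 genes of DNA synthesis, such as Pcna, lies outside the score and had a median slope of 0.27. DESeq2 called 5 (Palb2 and Chek1 in addition), and limma voom called 3. With groups next to the score edgeR called 0 members and 0 genes, at slopes of 0.75 for Brca1, 0.75 for Fancd2 and 0.50 for Fanci (adjusted p = 0.154, 0.626 and 0.909), and with the replicate number as a block 0 members.

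The calls on the division score leaned on recurrent 17-DMAG plus stavudine tumor 2. Without it edgeR called 0 of the 9, although the slopes were 0.46 for Brca1, 0.47 for Fancd2 and 0.48 for Fanci (adjusted p = 0.815, 0.818 and 0.6), and Atm turned to -0.03. Luminal markers were lowest and muscle markers highest among the tumors in this library; with a luminal marker score beside the division score, an alternative added after seeing the data, the same 3 genes were called. Leaving out recurrent 17-DMAG tumor 3 left 1 call (Fancd2), leaving out primary stavudine tumor 3 or recurrent 17-DMAG tumor 2 left 2 (Fancd2 and Fanci), and leaving out recurrent 17-DMAG tumor 1 gave 4 (Brca2 added, slope 0.33, adjusted p = 0.0289). Over all genes, edgeR called 265 in the full fit and 52 without recurrent 17-DMAG plus stavudine tumor 2. It called 177 without recurrent 17-DMAG tumor 3, 174 without primary stavudine tumor 3 and 170 without recurrent 17-DMAG tumor 2. Without recurrent 17-DMAG tumor 1 it called 865.

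**Figure D2:**
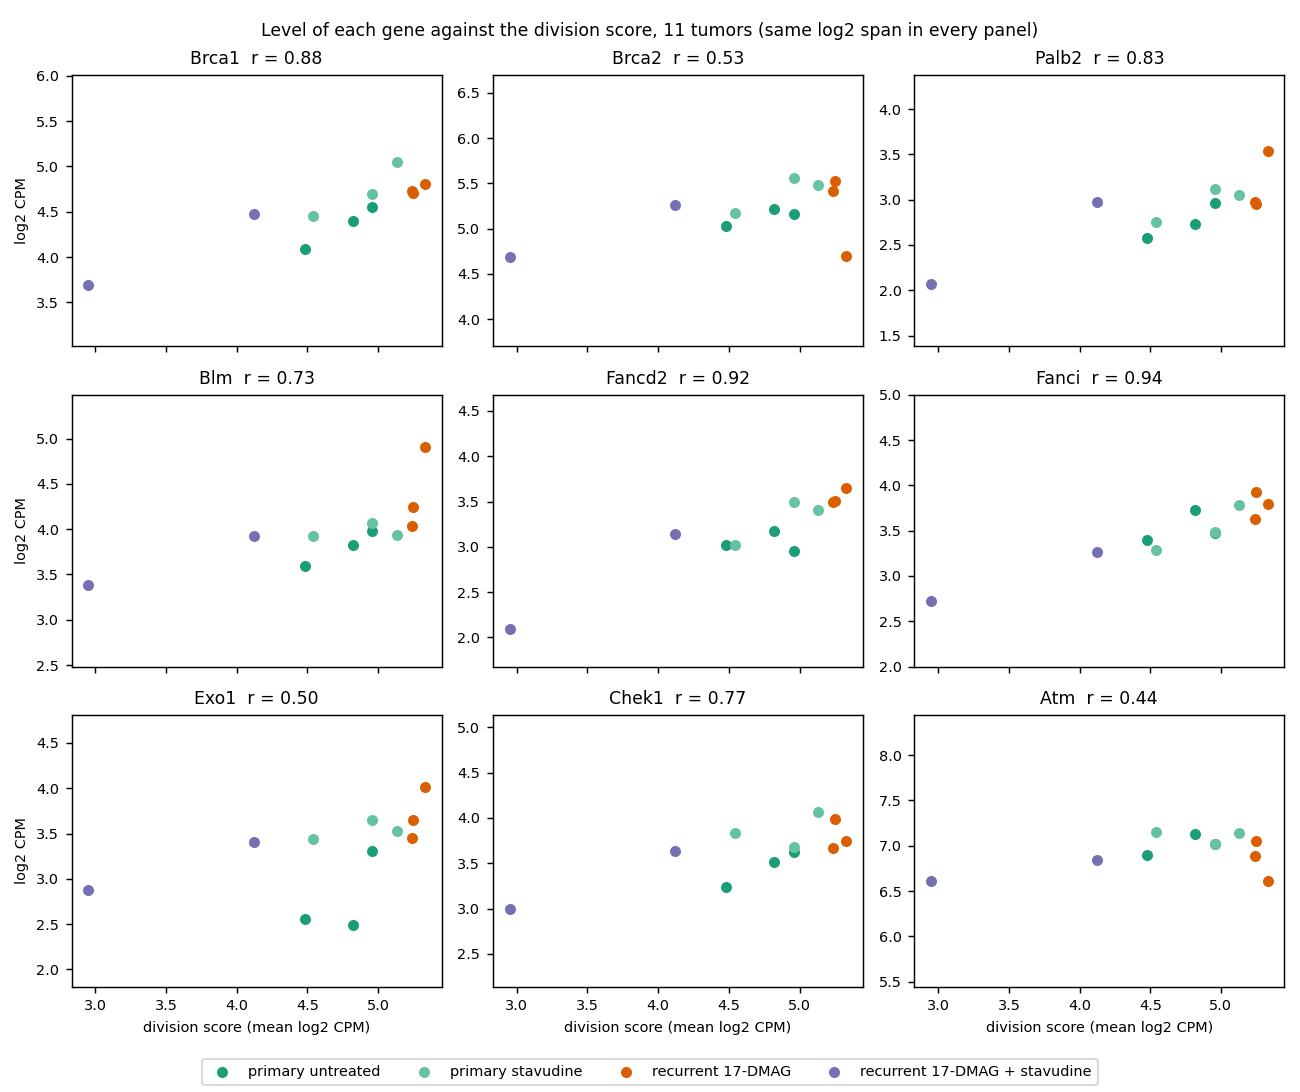
Log2 CPM of each gene (vertical axes, the same span of 3 log2 units) against the division score (horizontal axes, mean log2 CPM) in 11 tumors, colored by group, with Pearson's r. Fanci and Fancd2 have the highest r (0.94 and 0.92) and Atm the lowest (0.44) over all 11 tumors, and the tumor at a score of 2.95 stands apart on the left.

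The share of a gene's variance that goes with the score divided the 9 genes. Fanci (87.5% of the variance of log2 CPM), Fancd2 (84.9%), Brca1 (77.1%), Palb2 (68.8%), Chek1 (58.9%) and Blm (52.9%) were above 50%, and Brca2 (28.3%), Exo1 (25.2%) and Atm (19.1%) below it. Single libraries moved genes across this line. Without recurrent 17-DMAG tumor 1, the tumor rich in fibroblast RNA, Brca2 was at 74.3% and Atm at 57.7%. Without recurrent 17-DMAG plus stavudine tumor 2, only Fanci (70.2%) and Fancd2 (54.5%) stayed above 50%. Brca1 was then at 49.7%, Blm at 39.2%, Palb2 at 32.6%, Chek1 at 23.6%, Brca2 at 1.27% and Atm at 0.697%. Exo1 was at 18.3% to 42.1% over the tumors left out. The median of the 9 was 58.9%, beside 7.49% over all genes tested and 42.4% over 30 genes of S phase. It was 28.1% over 32 other genes of homologous recombination, 11.2% over 21 other Fanconi genes, 22.5% over 16 other checkpoint genes and 25.5% over 11 genes of end joining. The members and these lists were chosen with earlier results of these data known, so the contrast between them is a description. Pearson's r ran from 0.44 (Atm, permutation p = 0.178, unadjusted) to 0.94 (Fanci, permutation p = 9e-05), and Spearman's rho from 0.16 (Atm, permutation p = 0.635) to 0.89 (Blm, permutation p = 0.00055), in a family of 18 relations with the 2 scores used here. Without the 2 tumors farthest from the median score, both of them recurrent 17-DMAG plus stavudine tumors, r was 0.82 for Brca1, 0.83 for Fancd2, 0.78 for Fanci and 0.78 for Palb2, whereas it was 0.69 for Exo1, 0.15 for Brca2 and -0.39 for Atm, so the positive relation of the last pair rested on those tumors. Within groups, after each group mean was taken away, r was 0.97 for Brca1, 0.90 for Fancd2, 0.86 for Palb2, 0.82 for Fanci and 0.81 for Chek1, and between 0.37 (Atm) and 0.62 (Exo1) for the rest. Scores and genes came from the same libraries and share their depth and tissue mixture. The median share was 32.6% without recurrent 17-DMAG plus stavudine tumor 2.

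A score from 30 genes of DNA synthesis, such as the Mcm helicase genes and Pcna, ordered the genes in another way. Exo1 shared 76.3% of its variance with this S phase score, beside 25.2% with the division score, with which its rho was 0.70. Blm and Palb2 shared 75.0% each, and Chek1 72.8%, all more than with the division score. Fanci (46.2%) and Fancd2 (59.9%) shared less than with the division score, and Atm (5.18%) and Brca2 (17.8%) were lowest. Spearman's rho with the S phase score was 0.86 for Exo1 and 0.91 for Blm. The 2 scores were related (r = 0.75), and the difference between them was not tested for a gene. With the S phase score in place of the division score, edgeR called 0 members (adjusted p = 0.0931 for Brca1, 0.181 for Fancd2 and 0.295 for Fanci). Slopes of the members per unit of the S phase score ran from 0.16 to 1.53, with a median of 1.18. Slopes below 1 for all members thus hold for the division score only.

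**Figure D3:**
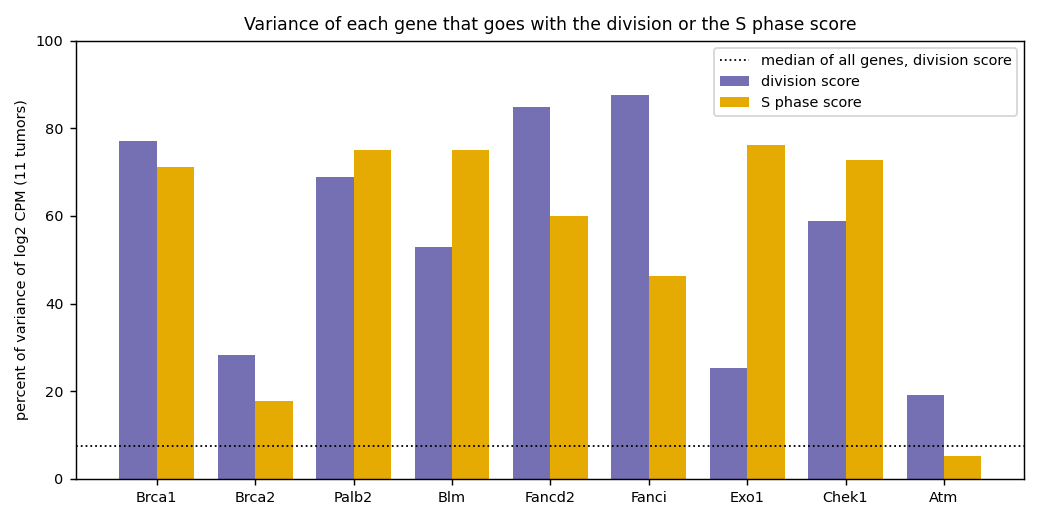
Percent of the variance of log2 CPM over 11 tumors (vertical axis, 0 to 100) shared with the division score and with the S phase score, for each of the 9 genes; the dotted line is the median of all genes for the division score, 7.49%. Over all 11 tumors Exo1 is at 76.3% with the S phase score and at 25.2% with the division score, and Atm at 5.18% and 19.1%, the latter 57.7% without recurrent 17-DMAG tumor 1.

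Recurrence was compared with primary tumors in each water arm. Without stavudine, 8 of the 9 genes had higher means in recurrent 17-DMAG than in primary untreated tumors, and with stavudine all 9 had lower means in recurrent than in primary tumors, but none passed the test in either arm. edgeR called 0 of 16870 genes (0%) in both. In the arm without stavudine the median change of the members was 0.38 (log2), beside -0.01 over all genes. Exo1 changed by 0.88 (95% interval 0.28 to 1.47, adjusted p = 0.509) and Blm by 0.63 (0.09 to 1.17, adjusted p = 0.509), and these 2 were the members with an unadjusted p under 0.05, a mark that 9.69% of all genes reached. The CPM values of 5 members (Brca1, Blm, Fancd2, Exo1 and Chek1) were higher in every recurrent 17-DMAG than in every primary untreated tumor, as in 7.51% of all genes. Blm changed by 0.35 without recurrent 17-DMAG tumor 1. DESeq2 called 61 genes and limma voom 0 in this arm, none of them a member.

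In the arm with stavudine the median change of the members was -0.41, beside 0.01 over all genes. The largest were Fancd2 at -0.62 (95% interval -1.28 to 0.04, adjusted p = 0.509), Brca1 at -0.61 (-1.18 to -0.04, adjusted p = 0.472) and Chek1 at -0.52 (-1.04 to 0.01, adjusted p = 0.5). Atm, at -0.37 (-0.70 to -0.05, adjusted p = 0.461), was with Brca1 the only member with an unadjusted p under 0.05, a share of 10.1% over all genes. Every recurrent tumor lay below every primary one for 5 members (Blm, Fanci, Exo1, Chek1 and Atm), as for 18.5% of all genes; for Blm the margin was 15.08 against 15.09 CPM. One library again set the size: the median was -0.19 without recurrent 17-DMAG plus stavudine tumor 2 and -0.83 without tumor 1, where edgeR called 100 genes and no member. DESeq2 called 331 genes and limma voom 0, with no member among them.

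Stavudine was compared with plain water in tumors of the same stage. In primary tumors edgeR called 0% of all genes. Exo1, at 0.70 (95% interval 0.10 to 1.29, adjusted p = 1), was the member with an unadjusted p under 0.05, beside 3.76% of all genes, and the others lay between -0.02 (Fanci) and 0.40 (Chek1). Among recurrent tumors all 9 changes were negative, with a median of -0.59 and again 0 calls. Without recurrent 17-DMAG plus stavudine tumor 2 this median was -0.27, and without tumor 1 it was -1.07. The fits behind these medians left 1 tumor in that group, so they are given without a test. Fancd2 stood at -0.85 (-1.51 to -0.19, adjusted p = 0.507), Blm at -0.77 (-1.39 to -0.16, adjusted p = 0.527), Fanci at -0.76 (-1.28 to -0.24, adjusted p = 0.43) and Brca1 at -0.61 (-1.18 to -0.04, adjusted p = 0.609), the 4 members with an unadjusted p under 0.05 beside 7.84% of all genes. In 6 members (Brca1, Blm, Fancd2, Fanci, Exo1 and Chek1) both tumors with stavudine were below all 3 without it, as in 10.5% of all genes and in 30 of the 30 genes of the division score. DESeq2 called 17 genes in the primary and 266 in the recurrent tumors, and limma voom 0 in both, without a member.

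The difference between the arms was tested as an interaction, recurrent minus primary with stavudine less recurrent minus primary without it; it uses the same libraries as the comparisons above. All 9 values were negative, from -0.19 for Atm to -1.25 for Exo1 (95% interval -2.14 to -0.35, adjusted p = 0.53), with a median of -0.85 beside 0.03 over all genes and -1.73 over the division genes. edgeR called 0% of all genes. Unadjusted p was under 0.05 for 6 members (Brca1, Blm, Fancd2, Fanci, Exo1 and Chek1) and for 7.84% of all genes. DESeq2 called 189 genes and limma voom 0, none a member. The median of the members was -0.59 without recurrent 17-DMAG plus stavudine tumor 2 and -1.26 without tumor 1. Both fits left 1 tumor in that group and are given without a test. In Blm, Exo1 and Chek1 every recurrent tumor was above every primary one without stavudine and below every primary one with it, which held for 1.46% of all genes and for 27 of the 30 division genes.

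With the division score in the model next to the groups, these differences moved toward 0 or changed sign for most members. The median interaction of the 9 genes went from -0.85 to 0.19, with Exo1 at -0.29 (95% interval -1.76 to 1.17), Fancd2 at 0.23 (-0.85 to 1.31) and Brca1 at 0.37 (-0.30 to 1.04), all with an adjusted p of 1. Between recurrent tumors with and without stavudine the median went from -0.59 to 0.37. Between recurrent 17-DMAG and primary untreated tumors it went from 0.38 to 0.02, where Exo1 (0.61, -0.01 to 1.24, adjusted p = 0.821) and Blm (0.39, -0.20 to 0.98, adjusted p = 0.821) had the highest values left. Under stavudine, recurrent against primary, it went from -0.41 to 0.31, and stavudine against plain water in primary tumors from 0.27 to 0.14. Across the 5 comparisons edgeR called 0 members and 0% of all genes; 3 values had an interval without 0, those of Brca1 (0.27, 0.03 to 0.52) and Exo1 (0.64, 0.10 to 1.18) for stavudine in primary tumors and of Brca1 (0.65, 0.07 to 1.23) for stavudine in recurrent tumors. An unadjusted p under 0.05 was reached by 3.13% of all genes for stavudine in primary and 1.87% in recurrent tumors, by 4.78% for recurrence without and 2.56% with stavudine, and by 1.35% for the interaction. DESeq2 called 4 to 26 genes, and neither it nor limma voom called a member. The intervals are wide, since score and groups overlap: the 2 recurrent 17-DMAG plus stavudine tumors had the lowest scores and the 3 recurrent 17-DMAG tumors the highest, so division and group could be told apart only from the spread within groups.

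**Figure D4:**
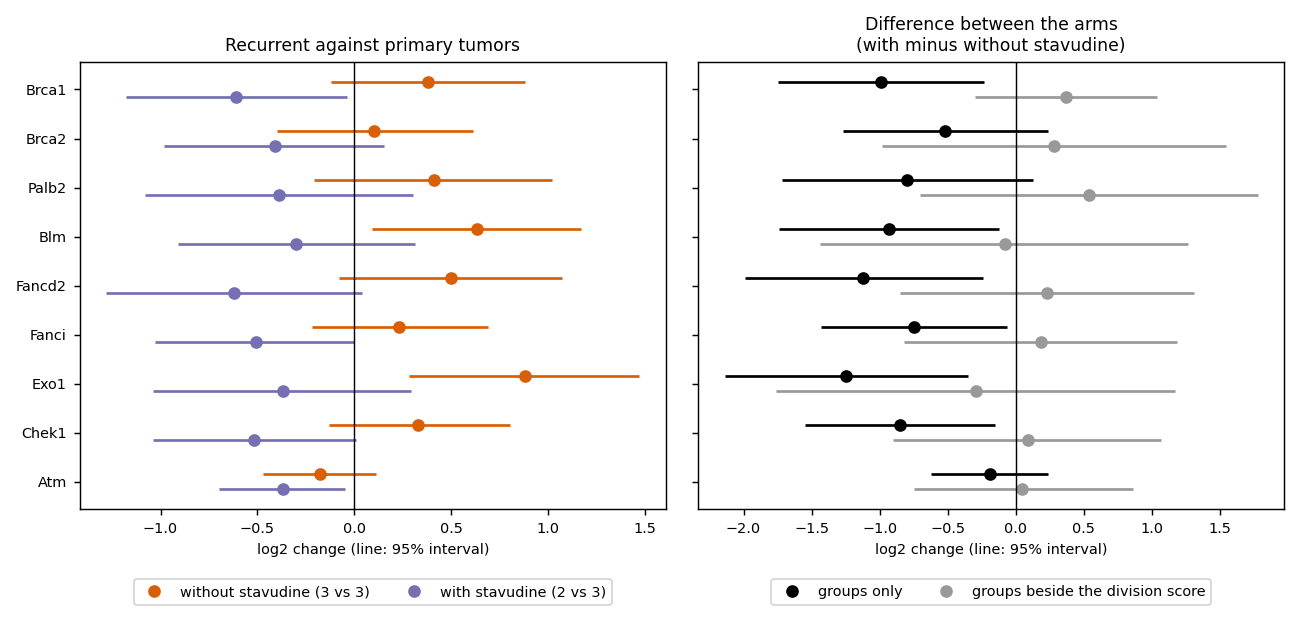
Left, log2 change of each gene from primary to recurrent tumors without stavudine (3 against 3 tumors) and with it (2 against 3); right, the difference between these arms from the groups alone and with the division score in the model. Points are estimates and lines 95% intervals; the median of the points on the right moves from -0.85 to 0.19.

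Other genes of the same pathways followed the division score in part. Of all 16870 genes tested, 1.57% were called on this score, and 1.07% were called with a positive slope. Among the other genes of homologous recombination Bard1, the partner of BRCA1 in its ubiquitin ligase, rose with it (slope 0.55, adjusted p = 0.0135). Of 21 other Fanconi genes 0 passed: Ube2t, the enzyme that conjugates ubiquitin to FANCD2, had a slope of 0.61 (95% interval 0.16 to 1.07, adjusted p = 0.231) at only 1.61 to 5.12 CPM in tumors, and Fanca, of the core complex, 0.12 (adjusted p = 0.862). Among 16 other checkpoint genes Chek2, the kinase below ATM (slope 0.44, adjusted p = 0.0173), and H2afx, whose histone is phosphorylated at breaks (slope 0.39, adjusted p = 0.0459), rose. Atr, the partner kinase of ATM, had a slope of 0.02 (-0.13 to 0.17, adjusted p = 0.967). Of 11 end joining genes, which rejoin breaks without a copy, 1 fell with the score, BC029214 (Paxx, slope -0.60, adjusted p = 0.0255), and Prkdc, the catalytic subunit of DNA-PK, had -0.17 (-0.38 to 0.03, adjusted p = 0.512).

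Against glands, 1 of the 32 other recombination genes rose in tumors, Xrcc2 (0.61, adjusted p = 0.0495), and 1 fell, Uimc1, whose product brings BRCA1 to ubiquitin at breaks (-0.63, adjusted p = 0.0481). Of all 17188 genes tested, 10.5% were called, 277 higher and 1528 lower in tumors. Chek2 fell by 1.05 (log2, adjusted p = 0.0215), with 19.4 and 42.3 CPM in the glands and 9.21 to 21.4 CPM in tumors, so gland 1 lay within the range of the tumors. Dclre1c, the Artemis nuclease of end joining, fell by 0.93 (adjusted p = 0.0267), and no other Fanconi gene was called. Chek2 was the 1 called of 16 other checkpoint genes, and Dclre1c the 1 called of 11 end joining genes. How far these calls depend on a single gland was not tested. In the comparisons among tumor groups edgeR called no gene of these lists.

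Start sites of 4 members lie head to head with another gene that reads away from them, which asks whether the shared stretch of DNA moves as a whole. Emc3 starts 30 bases from Fancd2, Dctn5 56 bases from Palb2, Nbr1 194 bases from Brca1 and Npat 307 bases from Atm. None of the 4 passed the test on the division score: the slopes were -0.06 for Emc3 (95% interval -0.17 to 0.05, adjusted p = 0.699), 0.06 for Nbr1 (-0.24 to 0.36, adjusted p = 0.937), 0.08 for Dctn5 (-0.03 to 0.20, adjusted p = 0.588) and 0.01 for Npat (-0.10 to 0.12, adjusted p = 0.973). The interval of Emc3 lay apart from that of Fancd2, 0.35 to 0.80, while the interval of Nbr1 overlapped that of Brca1. Over the tumors, Dctn5 ran from 51.2 to 62 CPM, with r = 0.53 against Palb2 and 0.63 with the division score, and Nbr1 from 221 to 467 CPM, with r = 0.07 against Brca1. Emc3 (72.3 to 88.1 CPM) had r = -0.39 against Fancd2, and Npat (43.7 to 50.6 CPM) had -0.17 against Atm. The kit keeps the strand of the RNA, but whether strand was used in counting is not stated in the sources used here, so reads where such pairs overlap may be shared.

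**Figure D5:**
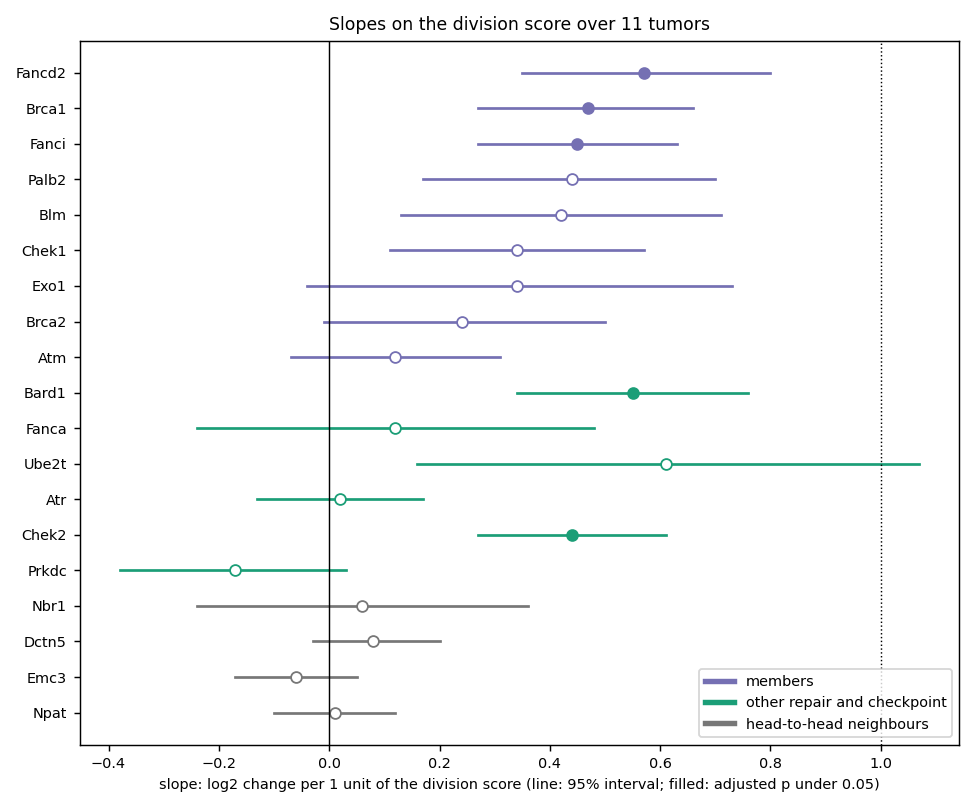
Slope on the division score (horizontal axis, log2 change per unit of the score) over 11 tumors for the 9 members, 6 other repair and checkpoint genes and the 4 head-to-head neighbours; lines are 95% intervals, filled points have an adjusted p under 0.05, and the dotted line marks a slope of 1. Fancd2 has the highest slope of the members, 0.57, and the 4 neighbours lie between -0.06 and 0.08.

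The members also moved with each other. Over the 28 pairs without Atm, r between log2 CPM ran from 0.04 (Brca2 and Blm) to 0.92 (Brca1 and Chek1) with a median of 0.72, while the 8 pairs with Atm had a median of 0.36 and were highest with Brca2 (0.76). Out of 12749 candidates outside the set (mean log2 CPM 1 or more), the 3 most like each member over the 11 tumors were named by r. They were Hmgb2, Top2a and Tlr5 for Brca1 (r = 0.97, 0.96 and 0.96), Hist1h3h, Cenpq and Hist1h3c for Fancd2 (0.97, 0.96 and 0.95), and Depdc1b, Mcm8 and Cep128 for Fanci (0.96 each). For Blm they were Ticrr, Ssrp1 and Sass6 (0.98, 0.98 and 0.97), for Palb2 Hist1h2bh, Tonsl and Hist1h3d (0.96, 0.95 and 0.95), for Exo1 Cdt1, Gulp1 and Arhgap10 (0.96, 0.95 and 0.94), and for Chek1 Dek, Spdl1 and Rfc4 (0.96, 0.94 and 0.93). They were Trim34b, Btc and Primpol for Brca2 (0.96, 0.95 and 0.95) and Sdhd, Mospd2 and Morf4l1 for Atm (0.98, 0.97 and 0.97). Of the genes so named for the members, only Top2a was in the division list. Only Cdt1 and Rfc4 were in the S phase list. With so many candidates and 11 libraries such values are a description.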

How the data were processed

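The 13 libraries were made from total RNA after removal of ribosomal RNA with a kit that keeps strand. The authors mapped reads with STAR (mm10/GRCm38) and used featureCounts for gene counts (Subread 1.6.2 and bcl2fastq 2.20 in the submitters' processing notes); the deposited values are raw counts, not normalized, 1 column per library. The strand setting and the treatment of multi-mapped reads are not given in the sources used here. Groups came from the labels, which do not state that each tumor came from a separate mouse, so p-values measure the spread between these samples.

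Counts were fitted in R 4.3.3 with edgeR 4.0.16 (filterByExpr, TMM, robust quasi-likelihood, adjusted over all genes; called at an adjusted p under 0.05). The gland contrast used 13 libraries (17188 genes) and the others 11 tumors (16870 genes); the biological coefficient of variation was 0.431 with glands, 0.402 for tumor groups, 0.429 for the score and 0.407 for both. All tests were two-sided. Log2 CPM used a prior count of 2. Permutation tests of correlations drew 100000 resamples. Alternatives were DESeq2 1.42.0, limma 3.58.1 (voom), RLE factors, no filter, a replicate block, other scores and leaving out each library. Intervals of fits cover the spread between samples, and the floor of 3 counts covers counting error only. Scripts were tested on simulated data. No 2 libraries of a group agreed within sampling noise (chi-square per degree of freedom 47.8 to 1810).

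The 9 members, the lists and the rule for named genes were chosen with earlier results of these data known. Named were the members, a fixed set (Bard1, Fanca, Ube2t, Atr, Chek2, Prkdc, Mki67 and Top2a; others of the set are not reported here), per comparison the 3 called genes of the other pathway lists with the largest change in each direction, the 3 genes most like each member, and head-to-head neighbours within 1 kb. Positions and lengths came from the GENCODE annotation of GRCm38.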

Additional observations from a re-analysis of the deposited data

Results flagged for a closer look

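Blm, Exo1 and Chek1 moved in opposite directions in the 2 water arms: every recurrent tumor was above every primary tumor without stavudine and below every primary tumor with it. The difference between the arms, recurrent minus primary with stavudine less the same without it, was -0.93 on the log2 scale for Blm, -1.25 for Exo1 and -0.85 for Chek1. By edgeR's interaction test none of them passed (adjusted p = 0.6, 0.53 and 0.58), and 1.46% of all genes had the same pattern. With the division score in the model the differences were -0.08, -0.29 and 0.09. Blm met the pattern by a margin of 15.08 against 15.09 CPM in the arm with stavudine.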

How the results depend on the processing

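The number of members called was 0 in each comparison among tumor groups under every alternative that kept at least 2 tumors in each group. The same held for these comparisons with the division score in the model. Against glands no member was called with any tumor left out. A fit without 1 of the 2 glands leaves 1 gland, so its calls are not given. On the division score 3 were called with edgeR, 5 with DESeq2, 0 with the S phase score, 0 with groups beside the score and 0 to 4 over the libraries left out. The replicate block also gave 0 (adjusted p = 0.0978 for Brca1, 0.0948 for Fancd2 and 0.0892 for Fanci, at slopes of 0.48, 0.56 and 0.44). Deviations from group means correlated at -0.3 to 0.22 over 15 same-numbered pairs, and 2 of 15 exceeded 0.1. Over 30 pairs of unlike number they correlated at -0.37 to 0.37, and 12 exceeded 0.1. In groups of 2 or 3 the deviations constrain each other, so these values cannot settle whether the replicate numbers pair the samples. The block changed no other call on a member. With a block, genes called against glands went from 1805 to 372, and on the division score from 265 to 114. The genes called on the division score numbered 739 with DESeq2, 40 with the S phase score, 0 with groups beside the score and 378 with the luminal score added. The median variance shared with the division score was 32.6% to 71.6% over the libraries left out, 71.1% with the S phase score, 49.7% with Mki67 alone, 65.4% within groups and 45% with glands added.

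Changes near 0 switched sign, and so did those that rest on 1 gland. Against glands, leaving out 1 library gave -0.54 to 0.528 for Chek1 and -1.202 to 0.231 for Palb2 (the low end without gland 1, the high end without gland 2), -0.107 to 0.056 for Atm and -0.003 to 0.143 for Blm; Chek1 was 0.016 with limma voom. With primary untreated tumors only, Blm was -0.096, Exo1 -0.234 and Atm 0.012. Fanci under stavudine in primary tumors, -0.02 in the fit reported, was 0.002 without the filter and -0.152 to 0.105 over the libraries left out, above 0 for 7 of them. Over the libraries left out, Brca2 in recurrent 17-DMAG against primary untreated tumors was -0.062 to 0.341 (recurrent 17-DMAG tumors 3 and 1), and the slope of Atm -0.03 to 0.186. The causes were not tested. Counts of the members were at least 134 in a library.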
